A study of Mus musculus with 6 samples.

Results

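The lysosomal genes described here were 40 mouse genes that encode lysosomal hydrolases, cathepsins and their partners, membrane proteins of the lysosome, and the transcription factor Tfeb. All 40 were found by symbol among the 32285 genes of the count matrices. The list was made by function, but with earlier results of these data known. It holds 8 cysteine proteases, 3 other proteases, 1 protease inhibitor, 8 glycosidases and sulfatases, and 6 lipid hydrolases and activators. It also holds 2 proteins of cholesterol export, 2 proteins for progranulin and nucleic acid turnover, 9 membrane proteins and 1 transcription factor.

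Lysosomes are acidic organelles in which hydrolases break down proteins, glycans and lipids that arrive by endocytosis, phagocytosis or autophagy. A proton pump, the V-ATPase, acidifies them, LAMP proteins line their membrane, and Tfeb switches on many of their genes together by binding a short palindromic element in promoters. Microglia, the resident macrophages of the brain, are known for high expression of cathepsins and of cystatin C (Cst3), and loss of many lysosomal enzymes causes storage disease in the brain.

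The cells came from whole brains of 3 male C57BL/6J mice at postnatal day 89, dissociated with a Dounce homogenizer in the cold, without enzymes, and sorted as CD45+ CD11b+ myeloid cells after perfusion and removal of the meninges as far as possible. Mouse 2 was processed with a cocktail of transcription and translation inhibitors (actinomycin D, triptolide and anisomycin; the INHIB group), and mice 1 and 3 without it (the NONE group), so the cocktail and the mouse cannot be told apart. Both versions of the 10x Genomics 3' kit, V3.0 and V3.1, were run on every mouse, which gave 6 libraries. A unique molecular identifier (UMI) marks each captured transcript, and the libraries held 6275898 to 18872816 UMIs in 29412 barcodes.

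Of these barcodes, 19725 passed a filter on genes, UMIs and mitochondrial share, from 21.5% of the barcodes for mouse 3 with V3.0, the shallowest library, to 76.8% for mouse 3 with V3.1. Cells were assigned by marker genes that are not among the 40. The gate held 19038 microglia, 287 neutrophils and only 26 border macrophages, that is 8, 15 and 3 in mice 1, 2 and 3. Border macrophages are the macrophages of meninges, choroid plexus and vessels. The 10 microglial gate genes summed to between 15466 and 16974 counts per 1000000 UMIs (CPM) in the microglia, to at most 2897 CPM in the border macrophages and to at most 401 CPM in the neutrophils. The 10 neutrophil genes took 447850 to 495378 CPM of the neutrophil UMIs, and the 10 border macrophage genes 4348 to 11341 CPM in the border macrophages against at most 39.7 CPM in microglia. The border macrophages also held 65 UMIs of the neutrophil genes (229 to 995 CPM, against 651 to 1496 CPM in microglia). They held 18 UMIs of 8 monocyte genes (up to 796 CPM, against at most 25.2 CPM in microglia), 4 of 9 lymphocyte genes and 1 of 4 astrocyte genes. The part of these UMIs in the results was not tested. Neuronal, oligodendrocyte, endothelial and red blood cell markers had 0 UMIs in the border macrophages. Each value below is a sum over the cells of a type in 1 library or 1 mouse. UMIs were counted at the 3' ends of transcripts, so levels of different genes were not divided by gene length.

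Tfeb and its relatives bind the palindrome TCACGTGA, the core of the 10-base CLEAR consensus, and other factors bind its inner 6 bases, CACGTG. Each of these motifs contains the shorter ones, and each reads the same on both strands. RefSeq promoters on GRCm38.p6, 250 bases before to 50 after a transcript start, were at hand for 35 of the 40 genes (40 promoters). TCACGTGA stood in 4 of these 40 promoters, or 10%, against 0.974% of 32851 promoters of all genes. CACGTG stood in 11, or 27.5%, against 7.15% of all, and the 10-base consensus in 0 against 0.326%. Among 49 promoters of 39 other lysosomal genes, 16.3% held TCACGTGA. A match is only a run of letters, and no binding was measured here. The windows below are the 30 bases around each TCACGTGA (capitals) in the genes of cathepsin A, cathepsin D, the lysosomal cation channel Mcoln1 and alpha-galactosidase A, shown because they are the members that carry the element. They run 5' to 3' on the strand of the gene, and the first capital lies at −13 and 4 in Ctsa, −99 in Ctsd, −46 in Mcoln1, and −228 and −195 in Gla, counted from the transcript start.
Ctsa, chr2:164833749-164833778: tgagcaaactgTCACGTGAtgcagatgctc
Ctsa, chr2:164833766-164833795: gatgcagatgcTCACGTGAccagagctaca
Ctsd, chr7:142387908-142387937: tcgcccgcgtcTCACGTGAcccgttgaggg
Mcoln1, chr8:3500462-3500491: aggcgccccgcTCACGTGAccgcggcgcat
Gla, chrX:134601215-134601244: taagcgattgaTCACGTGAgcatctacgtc
Gla, chrX:134601182-134601211: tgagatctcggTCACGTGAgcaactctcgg

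Whole promoters of 300 bases are shown for the genes that the expression results turn on most. Cst3 was the most abundant gene of microglia, Ctsd the most abundant member with the Tfeb element, and Cd63, among the 38 members tested, the one with the largest log2 fold change in border macrophages over microglia. CACGTG is in capitals, and in the promoters of Cst3 and Cd63 shown these letters did not occur. The Cd63 window belongs to a RefSeq transcript start inside the annotated span of the gene (128900989 to 128912822 on chromosome 10). The 5' end of that span was not looked at.
Cst3, chr2:148875463-148875762, minus strand: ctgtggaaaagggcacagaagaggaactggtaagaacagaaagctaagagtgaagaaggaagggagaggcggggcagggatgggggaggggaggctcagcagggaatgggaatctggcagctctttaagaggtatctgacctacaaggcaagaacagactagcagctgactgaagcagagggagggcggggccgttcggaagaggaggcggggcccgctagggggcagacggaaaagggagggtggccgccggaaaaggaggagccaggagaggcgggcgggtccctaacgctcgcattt
Ctsd, chr7:142387778-142388077, minus strand: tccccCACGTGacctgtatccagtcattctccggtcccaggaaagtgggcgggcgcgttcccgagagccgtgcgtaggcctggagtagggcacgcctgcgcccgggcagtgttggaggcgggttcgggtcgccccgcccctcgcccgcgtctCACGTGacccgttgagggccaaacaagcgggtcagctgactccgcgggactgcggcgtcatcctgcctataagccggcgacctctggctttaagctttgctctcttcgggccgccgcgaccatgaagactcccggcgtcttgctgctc
Cd63, chr10:128909095-128909394, plus strand: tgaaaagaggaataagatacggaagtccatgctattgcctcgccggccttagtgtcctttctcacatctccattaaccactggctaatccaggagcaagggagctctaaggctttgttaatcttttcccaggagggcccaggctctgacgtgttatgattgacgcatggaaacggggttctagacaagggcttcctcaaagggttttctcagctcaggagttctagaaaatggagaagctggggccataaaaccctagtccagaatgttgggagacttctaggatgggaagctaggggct

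In microglia the 40 genes together took 9.53% ± 0.162 (SD, n = 6 libraries) of all UMIs, with a range of 9.28% to 9.70%. Cst3 alone, the secreted inhibitor of cysteine cathepsins, took 5.96% ± 0.219 (SD, n = 6). The cysteine proteases took 1.58% ± 0.0520, the other proteases 0.682% ± 0.0866, the membrane proteins 0.657% ± 0.0139, the lipid hydrolases and activators 0.286% ± 0.0177, and the glycosidases and sulfatases 0.167% ± 0.0126 (SD, n = 6 each). Tfeb, which is known to induce many of the others, took 0.00270% ± 0.000239.

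Levels of single members spanned more than 4 orders of magnitude. By mean CPM over the 6 libraries, 11 members lay above 1000 CPM, 20 between 100 and 1000 CPM and 9 below 100 CPM, and 11 were among the 100 most abundant genes of microglia. Cst3 had a lowest, median and highest level of 55521, 60301 and 61265 CPM and ranked first among all genes. Cathepsin S (Ctss), a cysteine protease that trims the invariant chain of MHC class II, followed at 5860, 6620 and 7208 CPM and rank 8. Cathepsin D (Ctsd), the main aspartic protease, was at 4795, 6302 and 6843 CPM and rank 10. Their ranges overlapped, and the order of Ctss and Ctsd did not hold in every library. Ctsd was higher than Ctss with V3.0 in each mouse, by very little in mouse 2, and lower with V3.1 in each mouse.

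Legumain (Lgmn), the asparaginyl endopeptidase that matures other cathepsins, was next with 2782, 3322 and 3608 CPM. The transmembrane protein Laptm5 had a median of 2084 CPM and prosaposin (Psap), the precursor of sphingolipid activators, of 1715 CPM. Cathepsins L, B and Z had medians of 1501, 1486 and 1371 CPM, and the ranges of Ctsl (1360 to 1726 CPM) and Ctsb (1351 to 1672 CPM) overlapped almost wholly. The chaperone Unc93b1, which delivers nucleic acid receptors to endolysosomes, closed the first 10 with 1133 CPM, and Lamp1 stood at 1075 CPM. At the other end, Tfeb had 24.5, 26.4 and 31.3 CPM, the channel Mcoln1 17.8, 23.0 and 23.7 CPM, the heparan sulfatase Sgsh a median of 8.68 CPM and alpha-galactosidase A (Gla) of 3.14 CPM. The plot of microglial levels shows the same order. The coefficient of variation over the 6 libraries had a median of 7.69%, from 1.59% for Ctsz to 24.0% for Gla, the member with the fewest UMIs.

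**Figure D1:**
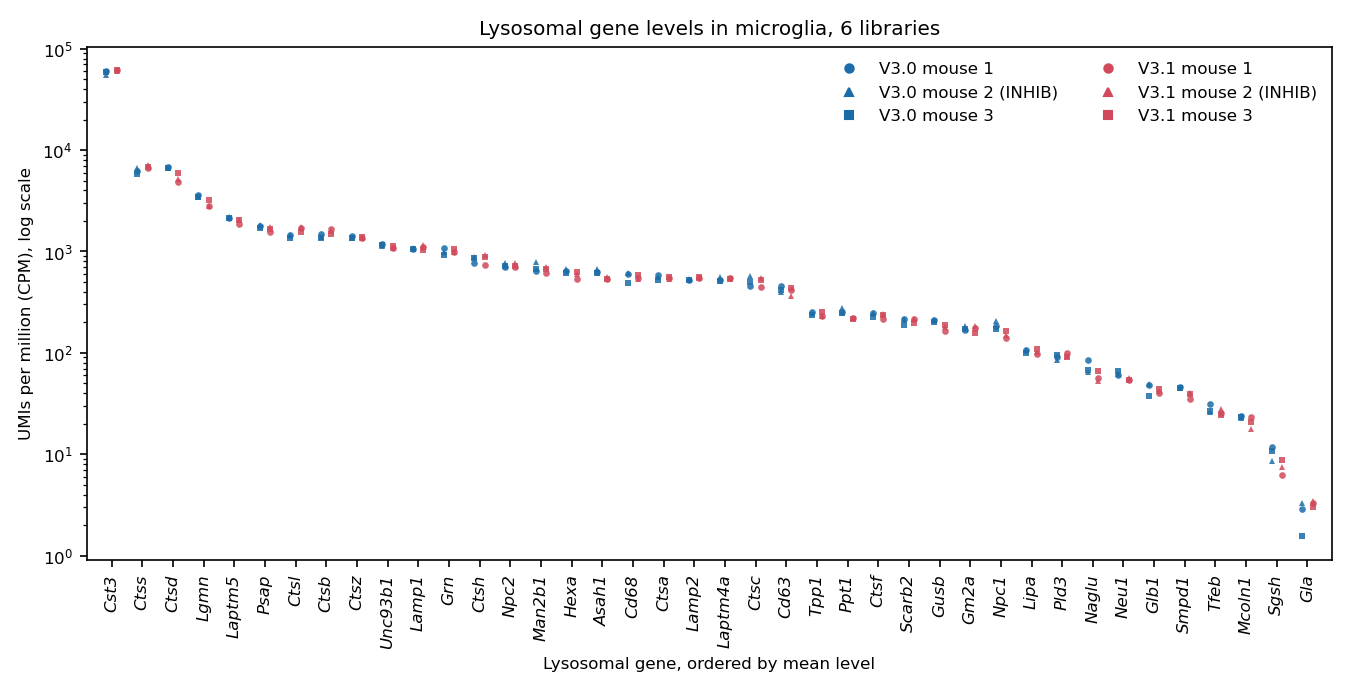
Level of each of the 40 lysosomal genes in microglia, in CPM on a log axis, with 1 point per library coloured by kit and shaped by mouse. Cst3 stands apart at a median of 60301 CPM, 11 genes lie above 1000 CPM, and the 6 libraries of a gene lie close together except for the rarest genes.

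The kit comparison asks whether the chemistry version changes what is detected. Of the 40 genes 0 were called, which required a log2 fold change beyond 0.58 and an adjusted p under 0.05 (edgeR quasi-likelihood test, V3.1 against V3.0, 3 libraries each), beside 3.02% of the 12020 genes tested in microglia. DESeq2 also called 0 of 40, and 12 of the 40 had an unadjusted edgeR p under 0.05. Counts at an unadjusted p, here and below, stand without their share over all genes and are not read as results about the members. All members together took 9.46% ± 0.189 of UMIs in the V3.0 libraries and 9.60% ± 0.117 in the V3.1 libraries (SD, n = 3 each), means that lie within 1 SD of the V3.0 libraries.

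Smaller shifts were visible. At any fold 3 members had an adjusted p under 0.05, beside 13.7% of all genes. Ctsd had 6843, 6668 and 6659 CPM with V3.0 in mice 1, 2 and 3 and 4795, 5242 and 5944 CPM with V3.1. The 2 kits did not overlap, and the log2 fold change was −0.32 (SE 0.0793, edgeR adjusted p = 0.0196). Cathepsin L moved the other way, from 1440, 1444 and 1360 CPM with V3.0 to 1708, 1726 and 1559 CPM with V3.1 (log2 fold change 0.25, SE 0.0675, edgeR adjusted p = 0.0268). The cholesterol transporter Npc1 had 182, 206 and 172 CPM with V3.0 and 141, 149 and 164 CPM with V3.1 (log2 fold change −0.29, SE 0.0850, edgeR adjusted p = 0.0396). The count was 7 with DESeq2, without the filter on low counts, with cells of at least 500 genes and with library totals in place of TMM. Counts under these alternatives stand without their share over all genes and are not read as results about the members. None of the 3 passed without the V3.0 library of mouse 3, where 0 of 40 did, nor without mouse 1 or without mouse 2. Their log2 fold changes over 13 alternatives ranged from −0.42 to −0.23 for Ctsd, from 0.19 to 0.26 for Ctsl and from −0.40 to −0.19 for Npc1, with largest adjusted p of 0.159, 0.160 and 0.316.

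With the mouse as a block, which compares the kits within each animal, 12 of 40 members had an adjusted p under 0.05 at any fold, beside 30.0% of all genes, 14.8% higher and 15.2% lower with V3.1. The count of members was close to the share of all genes, so it is not particular to them. Of the 12, 9 were lower with V3.1 and 3 higher. All 12 moved the same way in each of the 3 mice, which a test within the same mice favours, so it adds no support. The 3 that rose were the cysteine cathepsins Ctsl (0.25), Ctsb (0.19) and Ctss (0.15 on the log2 scale). The 9 that fell were Ctsd (−0.32), Lgmn (−0.23), the sulfatase Sgsh (−0.46), the glycosidases Naglu (−0.31) and Gusb (−0.21), the lipid hydrolases Smpd1 (−0.23), Asah1 (−0.21) and Ppt1 (−0.21), and Npc1 (−0.30). Cst3 was at 0.09 (SE 0.0423, edgeR adjusted p = 0.109) and did not pass. By another count, the 3 libraries of 1 kit all lay above those of the other for 13 of 40 members, 9 lower and 4 higher with V3.1, beside 33.1% of all genes tested. The within-mouse plot shows each difference.

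**Figure D2:**
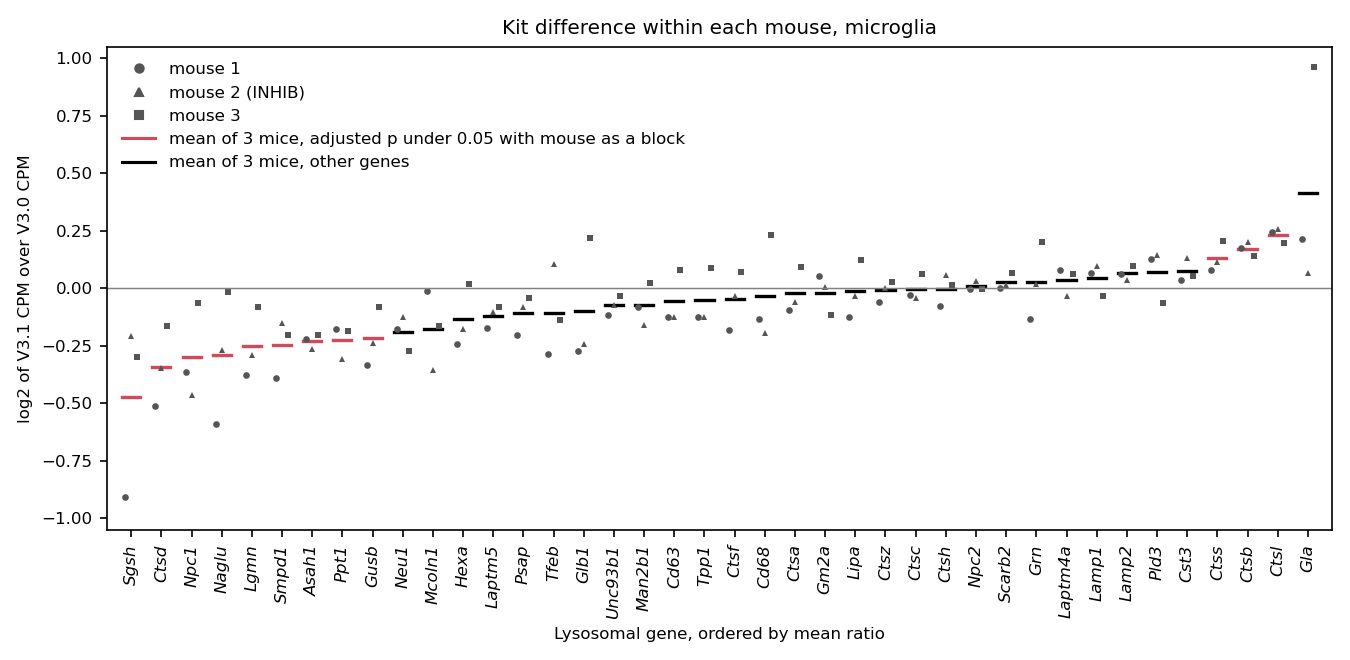
Log2 ratio of the V3.1 level over the V3.0 level of each lysosomal gene in microglia, within each of 3 mice (points) and as their mean (bars, red where the adjusted p with mouse as a block was under 0.05). Ctsd lies below 0 and Ctsl, Ctsb and Ctss above 0 in each mouse; the point near 1 is Gla in mouse 3, from the low-depth V3.0 library.

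Among other lysosomal genes, a list of 56, the kit moved 1 of the 51 tested in microglia past the fold. This was Tpcn1, a cation channel of endolysosomes, with 95.7 ± 6.84 CPM with V3.0 and 62.5 ± 3.34 CPM with V3.1 (SD, n = 3; log2 fold change −0.59, SE 0.0768, edgeR adjusted p = 6.0e-04). None of the 15 V-ATPase subunits was called.

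In neutrophils 23 members had enough UMIs for the kit test and 0 were called (edgeR), beside 0.386% of 2848 genes; DESeq2 called 0, and 4 members had an unadjusted edgeR p under 0.05. Lgmn had the lowest of these p, at 70.3 ± 13.4 CPM with V3.0 and 21.1 ± 17.8 CPM with V3.1 (SD, n = 3; log2 fold change −1.70, SE 0.446, edgeR adjusted p = 0.139). In border macrophages 18 members were tested and 0 called (edgeR; DESeq2 0, unadjusted p under 0.05 in 0), beside 1.63% of only 184 genes tested, and with 1 to 10 cells per library a difference was hardly detectable.

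Mouse 2, processed with inhibitors, was set against mice 1 and 3 with UMIs summed per mouse. In microglia 0 of 40 members were called (edgeR), beside 0.917% of 13192 genes. DESeq2 called 0 as well, and 3 members had an unadjusted edgeR p under 0.05. The members' share was 9.44% in mouse 2 and 9.58% and 9.66% in mice 1 and 3. Ctsd was at 6011 CPM in mouse 2 and at 5969 and 6060 CPM in mice 1 and 3, which is between them. Cst3 was at 57980 CPM against 60381 and 60893 CPM, and Tfeb at 26.9 CPM against 28.9 and 24.9 CPM. The 3 with the lowest p were the dipeptidyl peptidase Ctsc (log2 difference 0.22), alpha-mannosidase Man2b1 (0.22) and Naglu (−0.22), with edgeR adjusted p of 0.486, 0.452 and 0.540. No member differed by more than 0.22 on the log2 scale between the 2 groups.

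In neutrophils 1 of the 30 members tested was called, beside 0.702% of 4701 genes. Ctss had 279 CPM in mouse 2 and 72.8 and 126 CPM in mice 1 and 3 (log2 fold change 1.41, edgeR adjusted p = 3.83e-06, SE 0.242, higher than both other mice). By library the groups overlapped: mouse 2 had 217 CPM with V3.0 and 326 CPM with V3.1, mouse 1 had 85.3 and 60.8 CPM, and mouse 3 had 274 and 88.7 CPM. The call was lost under DESeq2 (adjusted p = 0.999), with cells of at least 500 genes, with the stricter and the looser gate and in the V3.0 libraries alone. Over the alternatives the edgeR and DESeq2 adjusted p ran from 6.26e-07 to 0.999 and the log2 fold change from 0.03, under the stricter gate, to 1.95, in the V3.1 libraries alone. Without mouse 1 it was 1.03 and without mouse 3 it was 1.83, values with no test.

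Few neutrophils carried these UMIs. Ctss had a UMI in 30 of 100 neutrophils of mouse 2, and 2 of them held 45.3% of its 170 UMIs. In mice 1 and 3 it had a UMI in 25 of 111 and 20 of 76 cells, and the 2 top cells held 38.8% and 37.3%. A set of 5 microglial genes, C1qa, C1qb, C1qc, Trem2 and Cx3cr1, served as a gauge of RNA from microglia in the neutrophils, and they moved in the same direction, summing to 716 CPM in mouse 2 and to 386 and 403 CPM in mice 1 and 3. Of these, C1qb was itself called (log2 fold change 0.92, edgeR adjusted p = 0.0328). For each 100 UMIs of the gauge, neutrophils held 39.0 UMIs of Ctss in mouse 2 and 18.8 and 31.4 in mice 1 and 3, against 20.5 to 21.9 in microglia. The part of microglial RNA in the Ctss result was not tested. In border macrophages 0 of 25 members were called (edgeR; DESeq2 0, unadjusted p under 0.05 in 1), beside 0.00% of 652 genes.

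Border macrophages differed from microglia in 10 of 38 members tested, 4 higher and 6 lower (edgeR with the mouse as a block, UMIs summed per mouse), beside 7.53% of 7756 genes, 3.37% higher and 4.16% lower. The members' share of UMIs was 3.87% ± 0.813 (SD, n = 6 libraries), with Cst3 at 1.14% ± 0.429. The median log2 difference was −0.38 over the members and −0.46 over all genes. These values rest on 26 cells and 98965 UMIs. The 10 microglial gate genes summed to 2426, 2026 and 745 CPM in the border macrophages of mice 1, 2 and 3, against 15721 to 16728 CPM in microglia. Of the 201 UMIs of this list 117 were of Fcrls, at 72.1% of its microglial level. The other gate genes lay between 0 (Sall1 and Slc2a5) and 18.5% (P2ry13) of theirs. The part of microglial RNA in these results was not tested.

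Cst3 had 13915, 12295 and 7237 CPM in the border macrophages of mice 1, 2 and 3, against 57980 to 60893 CPM in microglia. It was lower in each mouse, with a log2 fold change of −2.59 (SE 0.524, edgeR adjusted p = 3.58e-05), or 6.01-fold. Cathepsin L fell from 1551 ± 24.0 to 452 ± 175 CPM (SD, n = 3 mice; log2 fold change −1.97, SE 0.322, edgeR adjusted p = 7.85e-08) and cathepsin D from 6013 ± 45.9 to 1720 ± 265 CPM (log2 fold change −1.90, SE 0.343, edgeR adjusted p = 1.85e-06). Lgmn, Laptm5 and cathepsin F (Ctsf) were lower by −1.33, −1.27 and −1.47 on the log2 scale, each in 3 of 3 mice, although Ctsf rested on 9 UMIs in border macrophages, 8 of them in mouse 2.

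The tetraspanin Cd63 went the other way, with 1660, 1030 and 1596 CPM in border macrophages of mice 1, 2 and 3 against 437, 383 and 437 CPM in microglia. The groups did not overlap (log2 fold change 1.57, SE 0.260, edgeR adjusted p = 1.35e-07). Cathepsin C (Ctsc), which activates granule serine proteases, had 1628, 1494 and 1384 CPM against 455, 560 and 516 CPM (log2 fold change 1.45, SE 0.239, edgeR adjusted p = 1.04e-07). Cathepsin B was at 3989, 2610 and 2341 CPM against 1562, 1468 and 1469 CPM (log2 fold change 0.86, SE 0.252, edgeR adjusted p = 0.0123), and the cholesterol carrier Npc2 at 1532, 1460 and 639 CPM against 706, 768 and 713 CPM (log2 fold change 0.79, SE 0.249, edgeR adjusted p = 0.0242). Npc2 was lower than microglia in mouse 3, where 3 cells gave 6 UMIs of it, and Ctsb was higher in 2 of 3 mice once the samples were rescaled (TMM). Of 15 alternatives, 7 kept the calls of Ctsb and Npc2, 7 lost them and 1 reversed them, and 7 lost the call of Ctsf.

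Within the cysteine proteases the members thus split, with 2 of 8 higher, 3 lower and 3 not called. Cathepsin S, at 3904 ± 770 CPM against 6632 ± 265 CPM (SD, n = 3), had a log2 fold change of −0.97 (SE 0.339) and was not called (edgeR adjusted p = 0.0554). None of the 6 glycosidases tested and none of the 6 lipid hydrolases and activators was called. Among the other lysosomal genes 2 of 48 were higher, Hgsnat and Galc, and 4 lower. The sorting receptor Sort1 had 0 UMIs in the border macrophages and 97.0 ± 2.93 CPM in microglia.

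Without mouse 1 only 3 members were called, Ctsl, Ctsc and Cd63, beside 148 higher and 124 lower of 7338 genes. Without mouse 2 there were 8 calls, beside 103 higher and 159 lower of 7623 genes. Without mouse 3 there were 9, beside 326 higher and 258 lower of 8206 genes. Under the stricter gate, which kept 3 border macrophages, Ctsb, Ctsc and Npc2 turned to −0.90, −0.090 and −0.37. The 3 cells of mouse 3 had a TMM scaling factor of 2.45, beside 1.41 and 1.18 in the other mice. Of all called genes 44.7% were higher here, and 70.9% with DESeq2.

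Neutrophils differed most. Of the 38 members tested, 32 were lower than in microglia, 2 were higher and 4 were not called, beside 65.2% of 7756 genes called, 34.9% lower and 30.4% higher. The members took 0.462% ± 0.106 of the neutrophil UMIs (SD, n = 6 libraries). The median log2 difference was −1.94 over the members and −0.20 over all genes. All 8 cysteine proteases, all 3 other proteases and Cst3 were lower, and so were 5 of the 6 glycosidases tested, 4 of the 6 lipid hydrolases and activators, and 7 of 9 membrane proteins.

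Lgmn fell from 3232 ± 44.9 to 37.0 ± 15.6 CPM (SD, n = 3 mice; log2 fold change −4.94, SE 0.321, edgeR adjusted p = 3.48e-52) and Ctss from 6632 ± 265 to 159 ± 107 CPM (log2 fold change −4.03, SE 0.369, edgeR adjusted p = 8.26e-27). Cathepsin L had 28.2, 49.2 and 25.7 CPM in neutrophils of mice 1, 2 and 3, against 1554, 1574 and 1526 CPM in microglia (log2 fold change −3.97, SE 0.280, edgeR adjusted p = 3.30e-44). Ctsf had 4 UMIs in all neutrophils (log2 fold change −5.18, SE 0.434, edgeR adjusted p = 9.56e-32), and Naglu, Glb1 and Mcoln1 had 3 UMIs each. As a percent of the microglial level, with exact 95% Poisson intervals, these 3 were at 2.61% (0.538% to 7.63%), 3.84% (0.791% to 11.2%) and 7.90% (1.63% to 23.1%). Glb1 shares its strand with the overlapping gene Tmppe, and reads from the shared stretch cannot be told apart.

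Members with the smallest falls were Psap (log2 fold change −0.79, SE 0.235), Smpd1 (−0.95, a call lost under 7 of 14 alternatives), Man2b1 (−1.16) and Laptm5 (−1.26). Not called were Lamp2 (−0.14, SE 0.204), the thioesterase Ppt1 (−0.18, SE 0.198), the GM2 activator Gm2a (−0.07, SE 0.210) and Tfeb (0.14, SE 0.415, edgeR adjusted p = 0.779). Tfeb rested on 18 UMIs in neutrophils, so a moderate difference was not detectable at this depth. These values also depend on the scale. As shares of all UMIs, Lamp2, Ppt1, Gm2a and Tfeb stood at 31.1%, 30.9%, 32.7% and 38.2% of microglia. With library totals and no TMM 36 of the 38 members were called lower and 0 higher, beside 5788 lower and 918 higher of 7756 genes.

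The 2 members called higher were Cd63 and the sialidase Neu1, and their direction depends on the scale. Cd63 had 306, 314 and 300 CPM in neutrophils of mice 1, 2 and 3 and 437, 383 and 437 CPM in microglia, lower in each mouse as a share of all UMIs. Neu1 had 41.6, 50.9 and 45.0 CPM against 57.8, 59.1 and 56.4 CPM, also lower. The fit rescales each sample so that most genes balance (TMM), with factors of 0.434 to 0.491 in neutrophils and 1.34 in microglia by mouse, and the 10 neutrophil gate genes took 46.7% to 49.1% of neutrophil UMIs. On that scale Cd63 had 704, 638 and 632 against 326, 285 and 326 rescaled CPM (log2 fold change 1.08, SE 0.207, edgeR adjusted p = 6.65e-07) and Neu1 95.8, 104 and 94.7 against 43.1, 43.9 and 42.0 (log2 fold change 1.19, SE 0.239, edgeR adjusted p = 2.02e-06). With library totals and no TMM, their values turned to −0.45 and −0.34 while the median of all genes moved from −0.20 to −1.72. On that scale 13.7% of all called genes were higher, on the TMM scale 46.6%, and 34.7% with the gate genes left out of the totals. The 32 members called lower were lower under each of these scalings.

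**Figure D3:**
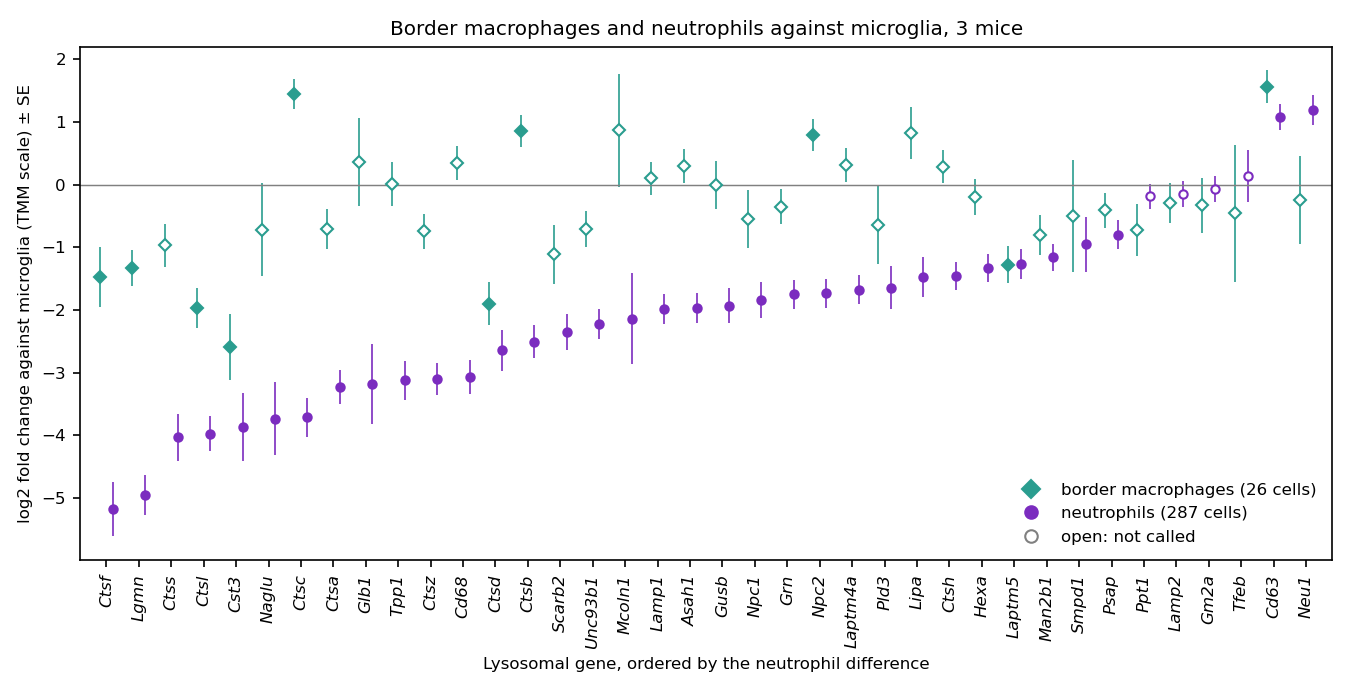
Log2 fold change of 38 lysosomal genes in border macrophages (diamonds) and neutrophils (circles) against microglia on the TMM scale, with SE over 3 mice; filled symbols were called. Cst3, Ctsl, Ctsd, Lgmn, Ctsf and Laptm5 are filled and below 0 in both cell types, Cd63 is filled and above 0 in both (below 0 in neutrophils without TMM), and Ctsc and Ctsb are above 0 in border macrophages and below 0 in neutrophils.

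The low neutrophil levels were set beside those of microglial genes. The 5 gauge genes stood at 1.16% to 1.73% of their microglial level in neutrophils, and the 10 microglial gate genes at 0.904% to 2.80%. Lgmn (1.19%, 0.919% to 1.51%) lay within the range of the gauge, and 1 neutrophil of mouse 1 held 16 of the 25 Lgmn UMIs of that mouse. Ctsf (0.961%, 0.262% to 2.46%) lay below it but rests on 4 UMIs. Neither level can be told apart from that of the gauge genes, and the part of microglial RNA was not tested. The interval reached the gauge for 7 members, Ctsc, Ctsf, Ctsl, Lgmn, Glb1, Naglu and Mcoln1, and lay above it for the other 33. Among those above, Cst3 was at 2.37% (2.27% to 2.46%) and Ctss at 2.39% (2.12% to 2.69%). Of the gate genes only P2ry13 stood higher, at 2.80% on 24 UMIs (1.79% to 4.16%), and the others lay below both levels. The gate itself limits how many of these genes a neutrophil may show, so they are not an independent measure. Ctsd was at 5.57% (5.13% to 6.04%), Psap at 20.2%, Lamp2 at 31.1%, Tfeb at 38.2%, Cd63 at 73.8% and Neu1 at 79.0% as shares of all UMIs. Cd63 had a UMI in 76 of 111, 70 of 100 and 55 of 76 neutrophils of mice 1, 2 and 3, and no cell held more than 10 of its UMIs.

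**Figure D4:**
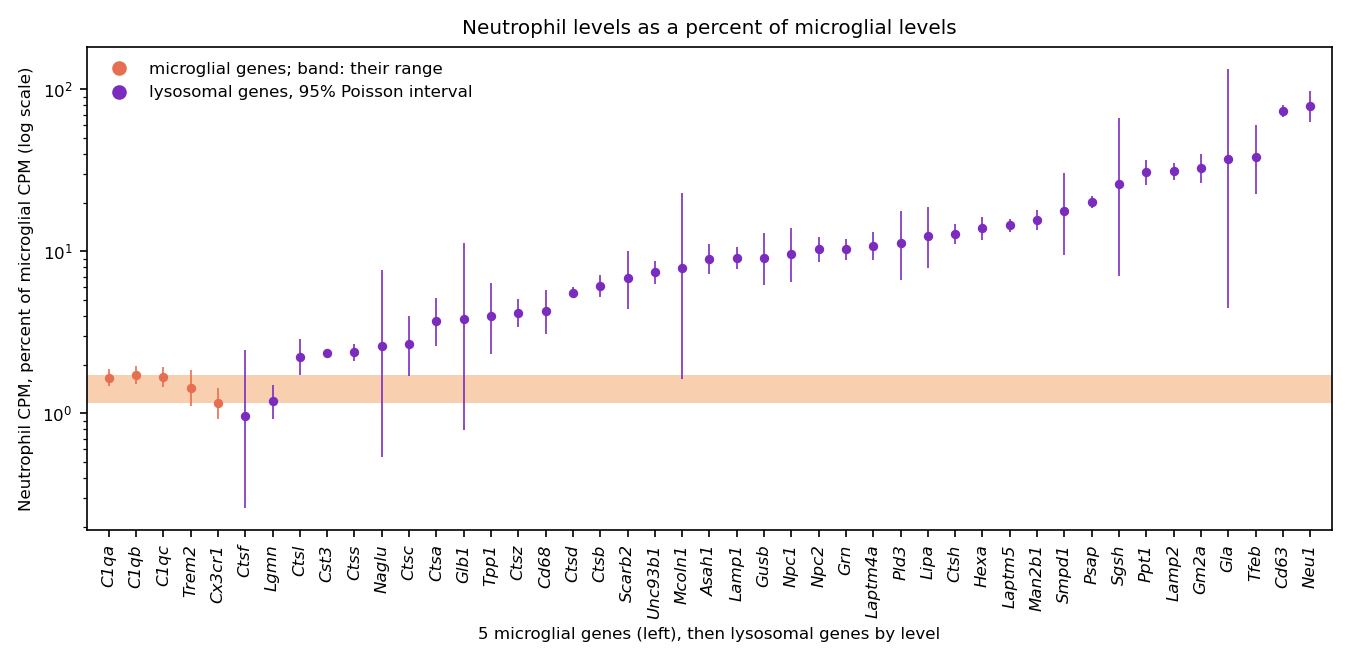
Level of each gene in neutrophils as a percent of its level in microglia on a log axis, pooled over 6 libraries, with exact 95% Poisson intervals that cover counting error only. The 5 microglial genes on the left span 1.16% to 1.73% (band); Ctsf and Lgmn lie in or under the band and Cd63 and Neu1 reach 73.8% and 79.0%.

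Among the other lysosomal genes, the count for the proton pump turned with the scale and that for the hydrolases did not. On the TMM scale 10 of the 15 V-ATPase subunits were higher in neutrophils than in microglia and 2 lower, beside 30.4% and 34.9% of all genes. With library totals and no TMM 1 was higher and 6 lower, beside 918 and 5788 of 7756 genes. With the gate genes left out of the totals 8 were higher and 5 lower, beside 1597 and 2999 of 6185 genes. The median log2 difference of the subunits was 1.28, −0.24 and 0.68 on these scales. It lay above that of all genes on each (−0.20, −1.72 and −0.57). Of 19 genes listed as other hydrolases, which include the acetyltransferase Hgsnat, 3 were higher and 12 lower on the TMM scale. With library totals 1 was higher and 18 lower. Atp6v1e1, a stalk subunit of the pump, had 312 ± 24.3 CPM in neutrophils and 144 ± 6.64 CPM in microglia (SD, n = 3; log2 fold change 2.64, SE 0.190, edgeR adjusted p = 1.24e-42), and was higher with library totals too (1.12). Galns, a sulfatase, was higher on each scale (31.0 ± 6.31 against 7.36 ± 0.352 CPM, log2 fold change 3.59, SE 0.345, edgeR adjusted p = 2.76e-24). Tfe3, a relative of Tfeb, was at −0.24 (SE 0.221) and not called on the TMM scale but at −1.77 with library totals, and Mitf was lower at −2.86 (SE 0.587, edgeR adjusted p = 3.41e-06).

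Neutrophils set directly against border macrophages were lower in 22 of 38 members and higher in 0, beside 31.2% of 7756 genes called, 10.6% lower and 20.6% higher. DESeq2 called 27 lower and 0 higher, beside 872 lower and 1179 higher of 7756 genes. An unadjusted edgeR p under 0.05 was found in 27 members. Ctsc, high in border macrophages, differed by −5.16 (SE 0.349, edgeR adjusted p = 3.98e-46), Lgmn by −3.61 (SE 0.368), the macrophage marker Cd68 by −3.42 (SE 0.359) and Ctsb by −3.36 (SE 0.294). Cd63 (−0.49, SE 0.263) and Laptm5 (0.01, SE 0.314) were not called. Of all called genes 66.1% were higher in neutrophils on the TMM scale and 17.8% without TMM. Without TMM 34 members were lower, beside 2156 lower and 466 higher of 7756 genes.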

How the data were processed

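The authors sequenced 6 pooled 3' single-cell libraries and deposited, per the file headers, raw UMI counts per gene and barcode. Their processing notes name Cell Ranger 5.0.0, bcl2fastq and GRCm38 (mm10). The counts were not normalized. Cells kept had 1000 to 4000 genes, no more than 12000 UMIs and a mitochondrial share of up to 15%. No doublet caller was run, and the gate lets cells with some markers of another type pass. The stricter gate, at least 4 own markers and at most 1 of any other list, kept 6657 of 19038 microglia. It kept 3 of 26 border macrophages and 129 of 287 neutrophils. A cell was assigned to a type if at least 3 markers of that type had a UMI and at least 2 more than of any other list. The marker lists held 10 genes each for microglia, border macrophages and neutrophils, and these genes were left out of the tests but kept in library totals. Libraries shared 1 to 14 barcodes per pair (at most 0.295% of the smaller).

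UMIs were summed per library (kit) or per mouse (inhibitors, cell type) and tested by edgeR 4.0.16 in R 4.3.3 (TMM, filterByExpr, quasi-likelihood test), with p-values adjusted by Benjamini-Hochberg over all genes tested. DESeq2 1.42.0 was an alternative. A gene was called at an adjusted p under 0.05 and a log2 fold change beyond 0.58. The cell type fit held all 9 sums with the mouse as a block. The kit fit had no block; libraries of the same number came from the same mouse, and their deviations from the kit means correlated by 0.418, 0.556 and 0.223 in mice 1, 2 and 3 over 500 genes. The 3 libraries of a kit come from 3 animals, while with 1 INHIB mouse the spread was that of the NONE mice. Scripts were tested on simulated data.

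All 40 members could be named, with full statistics for members called (if over 8, the 4 largest rises and falls that went the same way in every mouse), the 10 most abundant in microglia, Tfeb and Mcoln1. Other lysosomal genes named were Tfe3, Mitf, Tfec and up to 3 called genes per comparison, and 1 gene that the rule also names is not reported here. The members, the lists and the tests were chosen with earlier results of these data known. Alternatives were another size factor, another tool, no filter on low counts, other cell filters and gates, single libraries or mice left out, and each kit alone. The looser gate and the 2 scalings without TMM were added after seeing the data. Promoters came from RefSeq (GRCm38.p6). Intervals are exact Poisson intervals (scipy 1.17.1), which cover counting error only.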

Additional observations from a re-analysis of the deposited data

Results flagged for a closer look

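In the V3.0 library of mouse 3, Gla had 1.55 CPM in microglia, while the other 5 libraries lay between 2.87 and 3.42 CPM, a gap wide enough to stand apart by Dixon's criterion for 6 values. Of 43 groups of 6 values examined, 1 stood apart, and chance gives about 1 in 20. This library had the lowest depth of the 6.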

How the results depend on the processing

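At the fold threshold, 0 members were called in microglia for kit and for inhibitors under every alternative that gave a test. With the mouse as a replicate block the kit fits also called 0. Without that block the cell type fits called 10, 34 and 24 members (10, 34 and 22 with it). Over 7756 genes they then called 292 higher and 338 lower, 2414 and 2786, and 1657 and 869. At any fold the kit count in microglia was 3, and it was 12 with the replicate block, beside the shares of all genes given above. It was 7 with DESeq2, without the filter on low counts, with cells of at least 500 genes and with library totals. It was 6 with the gate genes left out of the totals, 2 with the stricter gate and 0 to 3 when a mouse was left out. Except for the 3 and the 12, these counts stand without their share over all genes and are not read as results about the members. The kit count in neutrophils was 1 without the filter on low counts, beside 6 higher and 11 lower of 11283 genes. It was 1 with the looser gate, beside 3 higher and 8 lower of 3001 genes. When a mouse was left out it was 0 to 1. Over all genes, 5 were then higher and 7 lower of 2718 without mouse 1, 3 and 1 of 2871 without mouse 2, and 3 and 2 of 2965 without mouse 3. The single inhibitor call in neutrophils fell to 0 with DESeq2, with cells of at least 500 genes, with the stricter gate, with the looser gate and in the V3.0 libraries alone. For border macrophages against microglia, leaving out a mouse gave 3 to 9 calls, beside the counts over all genes given above. For neutrophils against border macrophages the stricter gate gave 7, beside 569 higher and 114 lower of 5320 genes. Library totals without TMM gave 34, beside 466 higher and 2156 lower of 7756 genes. There 1 member was higher with the looser gate, beside 1729 higher of 7926 genes, and with V3.1 alone, beside 1203 higher of 5837 genes. The stricter gate gave fold changes of 97 genes but no test for kit and inhibitors in border macrophages, with too few libraries or mice left to estimate a spread. The members' share of neutrophil UMIs had a mean of 0.697% ± 0.480 (SD, n = 6 libraries) with cells of at least 500 genes. That filter gave 625 neutrophils in place of 287. The libraries then ranged from 0.358% to 1.66%, beside 0.319% to 0.621% with the filter as reported. With the stricter gate, which kept 3 border macrophages, Ctsb turned to −0.90, Ctsc to −0.090 and Npc2 to −0.37. In neutrophils against microglia without TMM, Cd63 turned to −0.45 and Neu1 to −0.34; the cause is the scaling itself. The causes of the other changes were not tested. Over all genes, calls ranged from 152 to 550 for the kit in microglia (363 as reported), from 21 to 133 for inhibitors in microglia (121), from 1 to 35 for inhibitors in neutrophils (33), from 4 to 17 for the kit in neutrophils (11), from 0 to 4 for the kit in border macrophages (3), from 172 to 1157 for border macrophages against microglia (584), from 3014 to 6706 for neutrophils against microglia (5060) and from 683 to 2844 for neutrophils against border macrophages (2417). Depth limits the border macrophages, with 4370 to 39559 UMIs per library, and the rare members, of which Sgsh and Gla were too low to test between cell types.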
